A study of Mus musculus with 6 samples.

Results

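The B7 ligands are cell surface proteins of the immunoglobulin superfamily through which dendritic cells tell T cells whether to respond. Here 5 of their genes were followed in type 1 conventional dendritic cells (cDC1), chosen by gene symbol in the platform annotation: Cd80, Cd86, Icosl, Cd274 and Pdcd1lg2. They are 5 of the 12780 genes that could be compared, and they had 6 of the 17551 probe sets of the deposited table, because Cd80 had 2 probe sets and the other members 1 each. The choice used symbols and not measured values, but it was made with earlier results of these data known.

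The cells were migratory cDC1, dendritic cells that carry antigen from the skin to the skin-draining lymph nodes and present it to CD8 T cells. All came from C57BL/6 wild-type mice. There were 3 samples without stimulation and 3 stimulated with anti-CD40, an antibody against CD40, and every sample was read on 1 microarray. Both groups went through the same sort, which kept cells with XCR1, CD40, high MHC II and intermediate CD11c on the surface and removed those with B220, CD326 or Sirpa, so CD40 on the surface was a condition of entry in stimulated and unstimulated samples alike. The sources used here do not give the age of the mice, any pooling of animals, or the route, dose and duration of the antibody treatment. The labels name biological replicates without saying what separated them, so the p-values rest on a spread between samples that can be technical in part.

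CD80 (B7-1) and CD86 (B7-2) share their receptors on T cells: CD28, which costimulates, and CTLA-4, which inhibits and can strip both ligands from the presenting cell. ICOS ligand, encoded by Icosl, costimulates activated T cells through ICOS. PD-L1, encoded by Cd274, and PD-L2, encoded by Pdcd1lg2, bind PD-1 and restrain T cells. Dendritic cells that mature after a signal through CD40, the receptor for CD40 ligand on helper T cells, are known for more CD80 and CD86 at the surface, and interferons are known inducers of PD-L1.

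In RefSeq's gene table for the mouse assembly GRCm38.p6, Cd80 and Cd86 lie on chromosome 16, Icosl on chromosome 10, and Cd274 and Pdcd1lg2 are direct neighbours on chromosome 19. Promoter sequences were found for 4 of the 5 genes in the RefSeq table (build GRCm38.p6). The 250 bases before the annotated start are shown for Cd80, the CD28 ligand gene that has an entry, and for the adjacent PD-1 ligand genes, whose values are compared further on. All 3 are read 5' to 3' on the plus strand. Capitals mark matches on either strand to the NF-kB letters GGGNNNNNCC, the interferon element (ISRE) letters GAAANNGAAA, the STAT element (GAS) letters TTCNNNGAA or the AP-1 letters TGANTCA.
Cd80 chr16:38458683-38458932: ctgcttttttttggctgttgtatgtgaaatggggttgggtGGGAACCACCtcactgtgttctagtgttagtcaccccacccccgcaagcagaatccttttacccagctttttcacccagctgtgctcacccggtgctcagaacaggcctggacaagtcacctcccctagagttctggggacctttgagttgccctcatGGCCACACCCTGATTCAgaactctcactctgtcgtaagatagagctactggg
Cd274 chr19:29367188-29367437: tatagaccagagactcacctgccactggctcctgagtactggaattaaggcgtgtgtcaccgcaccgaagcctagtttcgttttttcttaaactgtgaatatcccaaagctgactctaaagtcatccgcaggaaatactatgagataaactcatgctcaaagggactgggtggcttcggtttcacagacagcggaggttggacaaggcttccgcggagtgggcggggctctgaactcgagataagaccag
Pdcd1lg2 chr19:29410669-29410918: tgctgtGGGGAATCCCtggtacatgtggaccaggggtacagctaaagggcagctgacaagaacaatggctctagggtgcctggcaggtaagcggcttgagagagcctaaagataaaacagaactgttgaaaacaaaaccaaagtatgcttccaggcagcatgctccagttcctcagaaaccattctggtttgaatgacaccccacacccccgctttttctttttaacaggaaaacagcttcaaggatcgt
The Cd80 window held 2 matches to the NF-kB letters, starting 210 and 52 bases before the annotated start, and 1 AP-1 match, which begins 42 bases before it and follows directly on the second NF-kB match. The Pdcd1lg2 window held 1 NF-kB match, GGGGAATCCC, which fits the letters read on either strand and starts 244 bases before the annotated start. The Cd274 window held none of the 4 patterns, which says only that these letters are not in it. The Icosl window, which is not shown, held 2 NF-kB matches that do not overlap. The NF-kB letters are loose: 45.8% of the 32851 RefSeq promoter windows of this length held them, against 2.98% for ISRE, 7.02% for GAS and 6.75% for AP-1. These matches describe the sequence and are neither shown binding sites nor causes.

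Across the series, the arrays had median intensities of 51.9 to 56.3. The interquartile range of log2 intensity was 1.86 to 2.27 on the unstimulated and 1.87 to 2.40 on the stimulated arrays, and in each group it was widest on replicate 1 and narrowest on replicate 2. Genes of migratory dendritic cells had high signals in both groups, such as the lymph node homing receptor gene Ccr7 at a log2 intensity of 12.51 and 12.66. Of 8 listed cDC1 genes 7 were measured. The transcription factor genes Irf8 (11.00 and 11.64) and Batf3 (9.35 and 9.76) were bright, and Cadm1 was at 7.43 and 7.79. The others were dimmer. Clec9a had intensities of 70.4 to 108.9 on the 6 arrays, Itgae 24.5 to 34.5 and Wdfy4 22.6 to 36.2. Xcr1, the chemokine receptor used in the sort, had intensities of only 18.5 to 30.1.

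Stimulated cDC1 had more RNA signal for Cd86 and, to a smaller degree, for Cd80, and less for Pdcd1lg2. The Icosl and Cd274 groups overlapped. None of the 5 members passed a limma adjusted p under 0.05 over all genes (0 higher and 0 lower), where 0.0156% of all genes passed as higher and 0 genes passed as lower. Without adjustment, 3 members had a limma p under 0.05: Cd86, Cd80 and Pdcd1lg2. Of all 12780 genes, 265 had such a limma p and were higher, and 181 had one and were lower. The stimulated arrays all lay above the unstimulated ones for 2 of the 5 members, as for 3.68% of all genes, and all below them for 1 member, as for 3.46% of all genes (7.14% in either direction). The log2 difference was positive for 3 members and negative for 2, with a median of 0.60, against 0.0049 over all genes. In bulk samples of sorted cells, fewer cells of a type and less RNA per cell cannot be told apart.

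**Figure D1:**
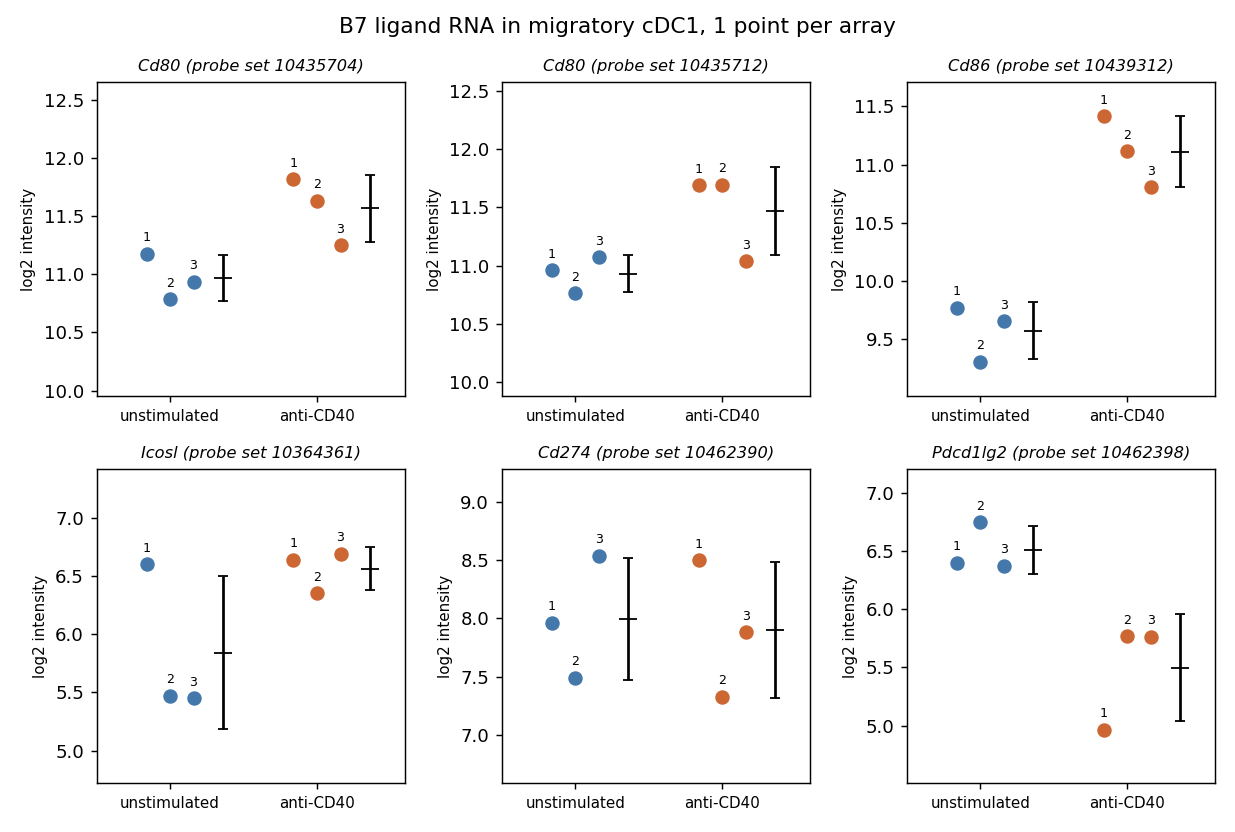
Log2 intensity of the 6 probe sets of the B7 ligand genes on each array. Points are arrays labelled with their replicate number, and the bar at the right of each group is the mean with its SD (n = 3). All panels span the same width in log2 units, but levels of different probe sets cannot be compared. The groups are apart for Cd86, for Cd80 probe set 10435704 and for Pdcd1lg2, and overlap in the other 3 panels.

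Cd86 showed the largest difference of the 5 genes. Its deposited intensity was 871, 631 and 804 on unstimulated arrays 1, 2 and 3, and 2729, 2216 and 1789 on stimulated arrays 1, 2 and 3 (probe set 10439312). Even the lowest stimulated array was above the highest unstimulated one by more than the range within the unstimulated group. On the log2 scale the level was 9.57 ± 0.24 without and 11.11 ± 0.30 with stimulation (SD, n = 3 each). The difference of 1.54 ± 0.22 (SE) is a 2.90-fold higher intensity (95% interval 2.03 to 4.16). It ranked 20th of 12780 genes among positive differences, and its moderated statistic ranked 11th in either direction. Over all genes it did not pass (limma adjusted p = 0.208). The exact two-sided permutation test over the 6 samples gave p = 0.1, the smallest that 3 against 3 samples allow.

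Leaving out any 1 array kept the Cd86 difference between 1.39 and 1.69. The call itself was not stable: with array weights in the fit, which count some arrays less, Cd86 passed (limma difference 1.32, adjusted p = 0.0230), and with a covariate for the spread of each array (its interquartile range) it did not (1.47, adjusted p = 0.0612). Over the 16 refits of the model tried, its limma adjusted p ran from 0.0230 to 0.99999.

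Cd80, the other CD28 and CTLA-4 ligand gene, was measured by both of its probe sets. Probe set 10435704 had intensities of 2313, 1766 and 1957 on unstimulated arrays 1 to 3 and 3607, 3178 and 2432 on stimulated arrays 1 to 3. The second, 10435712, had 1990, 1734 and 2150 on unstimulated and 3306, 3309 and 2101 on stimulated arrays 1 to 3. Stimulated arrays 1 and 2 were above every unstimulated array on both, and stimulated array 3 was the lowest of its group on both. On the second probe set that array fell inside the unstimulated range, so the separation of the Cd80 groups held for 1 probe set and not for the other. The log2 differences were 0.60 ± 0.21 and 0.54 ± 0.23 (SE) in the limma fit of all probe sets (adjusted p = 0.99998 for both). The brighter probe set stands for the gene, at 10.97 ± 0.20 and 11.57 ± 0.29 (SD, n = 3 each), which is a 1.52-fold higher intensity (95% interval 1.08 to 2.13).

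The balance between both CD28 ligand genes was compared within each array, which removes what the probe sets of an array share. The log2 ratio of Cd86 over Cd80 was -1.41, -1.48 and -1.28 on unstimulated arrays 1 to 3 and -0.40, -0.52 and -0.44 on stimulated arrays 1 to 3. Only the shift between groups can be read from these ratios, since different probe sets bind with different strength. The groups were far apart for their spread: the ratio was higher by 0.94 ± 0.07 (SE, n = 3 each) in stimulated cells. The exact two-sided permutation test gave p = 0.1, the smallest possible, and 0.15 after Benjamini-Hochberg adjustment over the 3 pairs compared. Without 1 array at a time the shift was 0.89 to 0.99, and with the mean of both Cd80 probe sets it was 0.97. Within each group the arrays had the same order for Cd86 and for Cd80 probe set 10435704, which was used here, but not for 10435712. The SE of the ratio holds for probe set 10435704 and was not computed with 10435712. From the spread of this ratio alone, the SE was below the limma SE of either gene (0.22 for Cd86 and 0.21 for Cd80).

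**Figure D2:**
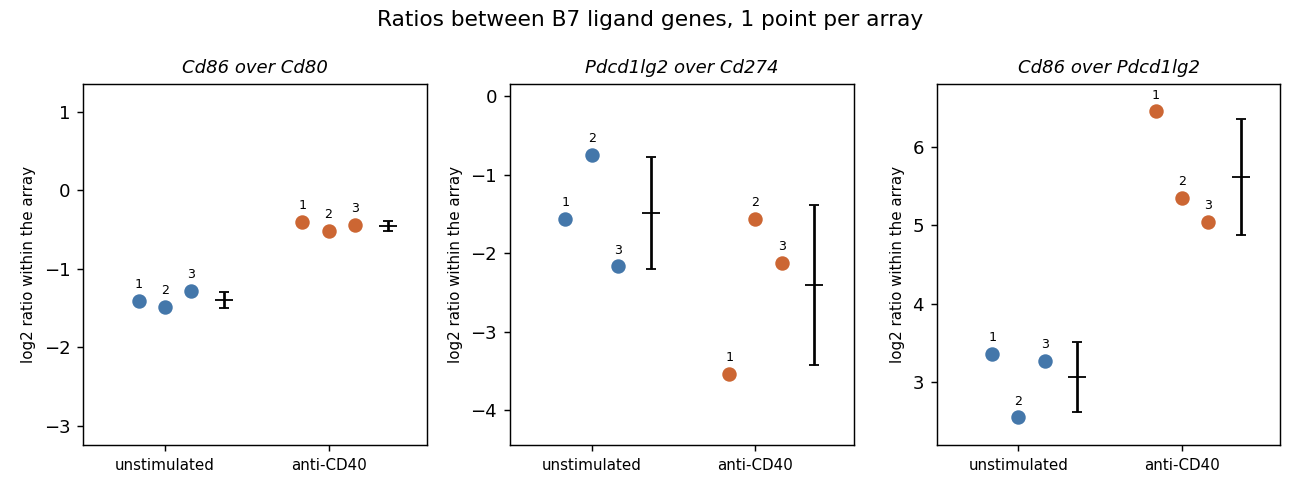
Log2 ratio of the intensities of a pair of B7 ligand genes within each array, for Cd86 over Cd80, Pdcd1lg2 over Cd274 and Cd86 over Pdcd1lg2. Points are arrays with their replicate number, and bars are the mean with its SD (n = 3). The ratio of Cd86 over Cd80 (probe set 10435704) is tight within each group and apart between groups, whereas the ratio of both PD-1 ligand genes overlaps between groups.

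Icosl encodes the ICOS ligand, which supports helper T cell responses. Its intensity was 97.2, 44.4 and 43.6 on unstimulated arrays 1 to 3 and 99.9, 81.6 and 103.5 on stimulated arrays 1 to 3 (probe set 10364361). The groups overlapped through unstimulated array 1 alone, which was at the level of the stimulated arrays. The level was 5.84 ± 0.66 and 6.56 ± 0.19 (SD, n = 3 each), and the difference of 0.72 ± 0.33 (SE) did not pass (95% interval -0.05 to 1.49, limma adjusted p = 0.99998). Without unstimulated replicate 1 the difference was 1.10 (limma adjusted p = 0.445). That array also had the widest log2 intensities of its group, with an interquartile range of 2.27. With the interquartile range as a covariate the Icosl difference was 0.59 (limma adjusted p = 0.619, and 0.0869 to 0.99999 over 16 refits).

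Cd274, which encodes PD-L1, varied more within groups than between them. Its intensity was 249, 180 and 373 on unstimulated arrays 1 to 3 and 362, 161 and 236 on stimulated arrays 1 to 3 (probe set 10462390). The ranges of the groups, 180 to 373 and 161 to 362, covered each other almost entirely, and array 2 was the lowest in both. The log2 level was 8.00 ± 0.53 and 7.90 ± 0.59 (SD, n = 3 each), with a difference of -0.09 ± 0.37 (SE, limma adjusted p = 0.99998). The 95% interval of -0.96 to 0.77 leaves room for a change of close to 1 log2 unit downward and 0.77 upward, so the data set only a wide bound on Cd274. The sign depended on single arrays, with 0.18 without unstimulated replicate 3 and 0.19 without stimulated replicate 2.

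Pdcd1lg2, which encodes PD-L2, was the one member with all stimulated arrays below all unstimulated arrays. Its intensity was 84.6, 107.6 and 83.1 on unstimulated arrays 1 to 3 and 31.2, 54.5 and 54.3 on stimulated arrays 1 to 3 (probe set 10462398). The highest stimulated array reached 54.5 and the lowest unstimulated one 83.1, so the groups were apart, with stimulated array 1 well below the other two. The level went from 6.51 ± 0.21 to 5.50 ± 0.46 (SD, n = 3 each). The log2 difference of -1.01 ± 0.26 (SE) is a 2.02-fold lower intensity (95% interval 1.32 to 3.09) and ranked 32nd among negative differences. It did not pass over all genes (limma adjusted p = 0.99998), and the exact permutation test gave its smallest possible p of 0.1. Without stimulated replicate 1, the array with the widest log2 intensities (interquartile range 2.40), the difference was -0.74, and in the fit with that range as a covariate it was -0.90 (limma adjusted p = 0.197, and 0.112 to 0.99999 over 16 refits). Background was not analysed here, and at such low intensities it can make a fold smaller than the change in RNA.

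**Figure D3:**
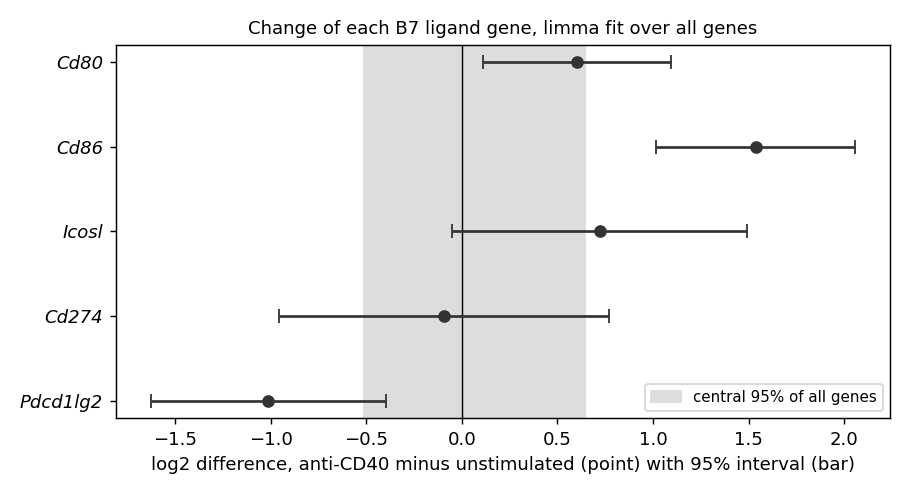
Log2 difference of each B7 ligand gene, anti-CD40 stimulated minus unstimulated, from the limma fit over all genes. Points are estimates, bars are 95% intervals, and the grey band holds the central 95% of the differences of all genes (-0.51 to 0.64). Cd86 (1.54) and Pdcd1lg2 (-1.01) lie outside the band on opposite sides, Icosl (0.72) just outside it, and Cd80 (0.60) and Cd274 (-0.09) inside it.

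Whether the PD-1 ligand genes differed from each other in their response was not resolved. The log2 ratio of Pdcd1lg2 over Cd274 was -1.56, -0.74 and -2.16 on unstimulated arrays 1 to 3 and -3.54, -1.56 and -2.12 on stimulated arrays 1 to 3. The groups overlapped, and the shift of -0.92 ± 0.72 (SE) had an exact permutation p of 0.4 (0.4 also after adjustment over the 3 pairs). The ratio of Cd86 over Pdcd1lg2, a CD28 ligand gene against a PD-1 ligand gene, was 3.36, 2.55 and 3.27 on unstimulated arrays 1 to 3. On stimulated arrays 1 to 3 it was 6.45, 5.34 and 5.04. These groups did not overlap, with a shift of 2.55 ± 0.50 (SE), an exact permutation p of 0.1 and 0.15 after adjustment over the 3 pairs. Cd86 was higher and Pdcd1lg2 lower on every stimulated array, so this separation and its p were fixed by those values and add no further evidence.

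T cells carry receptors of these ligands, though not all of these receptors are confined to T cells. Of the 5 listed CD28 family receptor genes 2 were measured. Of these 0 passed, where 0.0156% of all genes did. Icos differed by 0.23. Pdcd1, which encodes PD-1, had intensities of 89.7, 57.4 and 69.0 on unstimulated and 49.1, 43.2 and 46.7 on stimulated arrays 1 to 3. All its stimulated values were lower than the unstimulated ones, as for 3.46% of all genes. The log2 difference of Pdcd1 was -0.61 ± 0.21 (SE, limma adjusted p = 0.99998), in the same direction as that of Pdcd1lg2. A link between both was not tested.

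Other genes listed with the B7 and butyrophilin family, many of which encode further ligands that restrain T cells, lay near 0. The list also held Rgmb and Tnfrsf14, which belong to other families. Of 16 listed genes 9 were measured. Of these 0 passed in either direction (0.0156% of all genes did) and 0 had groups that did not overlap (7.14% of all genes did). Differences ran from -0.09 to 0.22 with a median of -0.06. Vsir, which encodes the inhibitory ligand VISTA, differed by 0.22, Igsf11, a VISTA ligand, by 0.19, Ildr2 by -0.09 and Btnl1 by 0.02. Each of the members Cd86, Cd80, Icosl and Pdcd1lg2 had a larger absolute difference than all 9 of these genes, and Cd274 (-0.09) was close to the lowest of them. Rgmb had intensities of 92.6 to 174.6, and the other measured genes of the list lay between 19.4 and 78.4. Background, not analysed here, can shrink differences at such low intensities, so these genes give a weak comparison.

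Genes that act on the ligand proteins after translation were listed as well, since surface CD86 and PD-L1 depend on them. Of 17 listed genes 15 were measured and 0 passed, where 0.0156% of all genes did, with a median of 0.13. Marchf8, a ubiquitin ligase that targets CD86, differed by -0.51 (95% interval -1.03 to 0.014). It was lower on all stimulated arrays, as 3.46% of all genes were. Its intensities were 17.6, 17.6 and 27.6 on unstimulated and 15.5, 14.5 and 13.3 on stimulated arrays 1 to 3. These are low: the smallest geometric mean that the higher group of any probe set had was 20.001, which Marchf8 reached in the unstimulated group alone. Ap2m1, a clathrin adaptor subunit that takes up CTLA-4, differed by 0.44 (95% interval -0.81 to 1.68), Trappc4 by 0.32 and Hip1r by -0.03. Cd83, whose protein protects CD86 and MHC class II from ubiquitination, and Cmtm6, which keeps PD-L1 at the surface, were named after their values were seen. Cd83 differed by -0.05 (95% interval -0.44 to 0.34) and Cmtm6 by 0.13 (-1.12 to 1.37).

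Inputs to the PD-1 ligand genes had no member past the threshold either. Of 25 listed genes of the interferon, interleukin-4 and JAK-STAT pathways 23 were measured, and the median was -0.02. Of these 0 passed (0.0156% of all genes did) and 0 had groups that did not overlap (7.14% of all genes did). The differences with the largest size were those of Jak2 (-0.90, 95% interval -1.81 to 0.0088), a kinase of the interferon gamma receptor, Irf1 (0.82, -0.23 to 1.88), an interferon-induced transcription factor gene, and Csf2rb (-0.68, -2.04 to 0.68), the shared receptor chain for GM-CSF. Irf9, a subunit of the type I interferon response complex, differed by -0.0034.

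Among CD40 and NF-kB genes, 20 of 23 were measured and 0 passed, where 0.0156% of all genes did, with a median of -0.02. Cd40 itself was higher on all stimulated arrays (1.01, 95% interval 0.26 to 1.76), as 3.68% of all genes were. Map3k14, which encodes the kinase NIK of the alternative NF-kB pathway, differed by -1.03 (-2.16 to 0.10), Nfkbia, a target and inhibitor of NF-kB, by 0.84 (0.15 to 1.52) and Birc3 by -0.02. MHC class II genes, whose products present the antigen that B7 ligands accompany, had a median of 0.11 over 11 of 13 listed genes, with 0 passed and 2 (H2-Ab1 and Ciita) higher on all stimulated arrays, as 3.68% of all genes were. The invariant chain gene Cd74 differed by -0.78, the class II chain gene H2-Ab1 by 0.40, and Rfxank and Rfxap, subunits of the factor that binds class II promoters, by 0.37 and 0.0003.

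**Figure D4:**
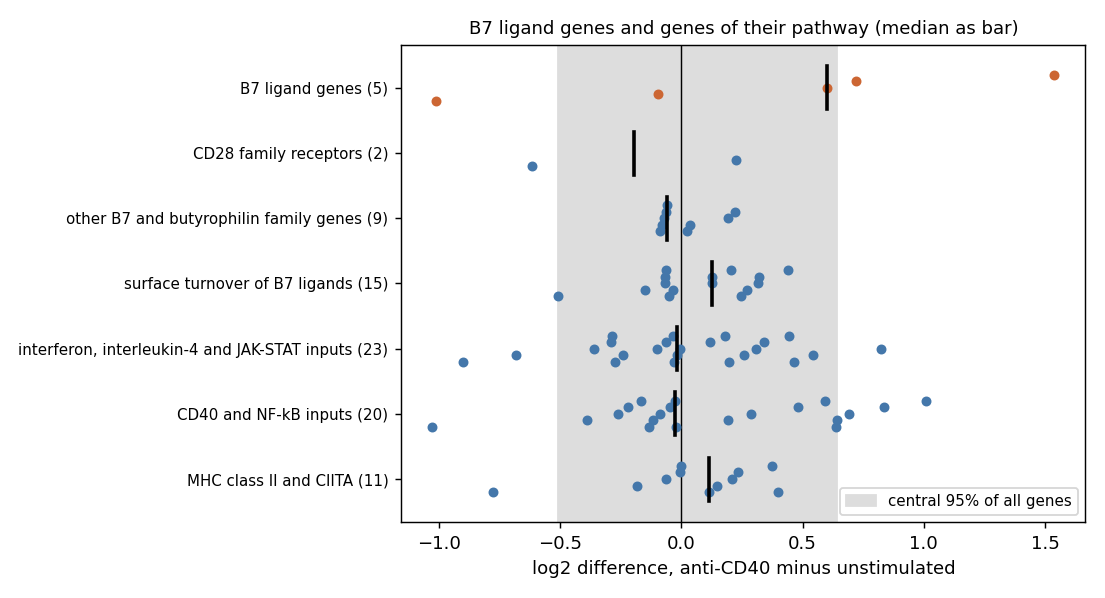
Log2 differences, anti-CD40 stimulated minus unstimulated, of the 5 B7 ligand genes (orange) and of the measured genes of 6 pathway lists (blue). Points are genes, spread vertically only for legibility, black bars are medians, and the grey band holds the central 95% of all genes. The B7 ligand genes reach from -1.01 to 1.54, and the medians of the 6 lists lie between -0.19 and 0.13.

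Markers of other cells that can make B7 ligands or PD-1 were measured in part. The summed intensity of 3 of 6 listed B cell markers was 96.5 to 161.7 on unstimulated and 89.6 to 138.5 on stimulated arrays. That of 5 of 6 T cell markers was 137 to 228 and 158 to 298, and Csf1r, the 1 measured of 6 monocyte and macrophage markers, was at 23.3 to 29.5 and 20.9 to 29.0. All 5 T cell markers had positive differences (0.10 to 0.64), opposite to Pdcd1, where 51.0% of all genes were positive, and 1 of them, Cd3e, was higher without overlap, as 3.68% of all genes were. Both Langerhans cell markers were measured. Epcam, which encodes the CD326 that the sort removed, had intensities of 26.2, 24.2 and 29.9 on unstimulated and 41.2, 45.4 and 33.3 on stimulated arrays 1 to 3. All its stimulated values were above the unstimulated ones, as for 3.68% of all genes, and in the direction of Cd86 and Cd80. The log2 difference of Epcam was 0.57 (95% interval 0.13 to 1.01, limma adjusted p = 0.99998), whereas Cd207 differed by -0.07. Of 6 markers of type 2 conventional dendritic cells 2 were measured, with summed intensities of 58.6 to 72.3 and 66.2 to 111.6. Sirpa, at intensities of 24.9 to 30.2, was higher by 0.15 without overlap, as 3.68% of all genes were, and Irf4 differed by 0.46. All 4 plasmacytoid dendritic cell markers were measured, with summed intensities of 472 to 579 and 459 to 656 and differences of -0.07 to 0.08. Most of these sums came from Bst2 (242 to 514 on the 6 arrays) and Tcf4 (89.6 to 146.1). Siglech (19.7 to 41.8) and Ly6d (22.7 to 54.1) were dim, so the sums of different lists cannot be compared. The part of other cells in the B7 ligand values was not tested.

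The genes whose profile over the 6 arrays was most like that of each member were found by the root mean square distance between log2 values, each centred on its own mean. For Cd86 they were Csrp2, which encodes a LIM domain protein linked to actin (distance 0.18), Ebi3, which encodes a subunit of IL-27 (0.19), and Taf9b (0.21), where the median distance over all genes was 0.84. Their differences were 1.64, 1.58 and 1.34. For Cd80 they were Rad18, a DNA repair ubiquitin ligase gene (0.08), Zfp189 (0.10) and Plcl2 (0.11). Nearest to Icosl were Sting1, which encodes the adaptor of cytosolic DNA sensing (0.11), Pih1d1 (0.15) and the Toll-like receptor kinase gene Irak2 (0.15). Nearest to Cd274 were the lysosomal enzyme gene Naglu (0.13), Rab12 (0.14) and Cdyl2 (0.17). Nearest to Pdcd1lg2 were Etfbkmt (0.16), Tctex1d2 (0.21) and the kinase gene Stk39 (0.25). The values share arrays and their spread, so likeness over 6 arrays describes these samples only.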

How the data were processed

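Intensities of 17551 probe sets on 6 arrays of 1 colour were deposited by the authors in 1 table. Per the submitters' processing notes they used Affymetrix Expression Console and RMA, which corrects background, normalises arrays by quantiles and summarises probes (no version or setting is given in the sources used here). The deposited intensities run from 6.97 to 13701, a linear scale, so log2 was taken. In every probe set at least 1 group had a geometric mean of 20.001 or more, so dimmer genes were not analysed here.

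The platform annotation gave the names: 13963 probe sets had 1 symbol, 970 several and 2618 none. Those with 1 symbol were used, the brightest over the 6 arrays for each gene, which gave 12780 genes. Stimulated minus unstimulated differences were fitted with limma 3.58.1 in R 4.3.3 (lmFit, eBayes, no covariates, two-sided) with Benjamini-Hochberg adjustment over all genes and a threshold of 0.05. Within-array ratios of 3 member pairs were tested by exact permutation over samples. The median difference moved by under 0.1 under every scaling tried.

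The members, the pathway lists and the named genes (the members, then per list the 3 largest differences and the smallest, then the 3 nearest profiles per member, predicted genes left out) were chosen with earlier results of these data known. Precision is limited by the number of arrays. Alternatives were a replicate block, a variance trend, the removal of dim genes, other normalisations, array weights, array spread as a covariate, other probe set rules, a pseudocount of 16 and leaving out each array. The limma fit was also run on simulated data whose noise was drawn independently for each gene and array. The arrays here share part of their spread across genes, so that run is a weak check. Figures used matplotlib 3.10.9 in Python 3.11.15.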

Additional observations from a re-analysis of the deposited data

How the results depend on the processing

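Over 16 refits of the model each, Cd80, Cd86, Icosl and Pdcd1lg2 kept their direction in all 16 and Cd274 in 14. Leaving out 1 array at a time gave 0.48 to 0.76 for Cd80, 1.39 to 1.69 for Cd86, 0.53 to 1.10 for Icosl, -0.39 to 0.19 for Cd274 and -1.15 to -0.74 for Pdcd1lg2. Cd274 turned positive without unstimulated replicate 3 (0.18) and without stimulated replicate 2 (0.19). Cd86 passed in 2 refits, with array weights (1.32) and with the replicate number as a block (1.54, limma adjusted p = 0.0235), and its adjusted p over all refits ran from 0.0230 to 0.99999. The other 4 members passed in none. The replicate numbers are not shown to pair the samples: deviations from the group means correlated by 0.73 for number 1, 0.59 for number 2 and 0.06 for number 3. In the main fit 2 genes were higher and 0 lower. The replicate block gave 30 higher and 8 lower, array weights 28 and 18, the interquartile range as a covariate 11 and 4, a pseudocount of 16 gave 1 higher, and quantile normalisation once more 1 lower. Leaving out any 1 array gave 0 genes higher and 0 lower, with fewer samples fitted. The cause of the other changes was not tested. All 3 ratio shifts kept their sign in every refit: 0.89 to 0.99 for Cd86 over Cd80, -1.34 to -0.35 for Pdcd1lg2 over Cd274 and 2.13 to 2.83 for Cd86 over Pdcd1lg2 without 1 array. The block gave those ratios the same values, with sign-flip exact p of 0.25, 0.5 and 0.25. The medians of the 6 pathway lists moved by less than the spread between replicates in all 66 refits. That spread, 0.15 to 0.57, was larger than each median, so this is a weak check. Without unstimulated replicate 1 the median of the CD40 and NF-kB list went from -0.02 to 0.37. Without unstimulated replicate 2 that of the surface turnover list went from 0.13 to -0.17. The number of arrays limits the precision of all these values.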

Other observations

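The chromosome neighbours of the B7 ligand genes were looked up after the values of the members were seen, taking 4 protein-coding genes on each side in RefSeq's gene order for GRCm38.p6. Of 32 neighbours 26 were measured, 0 passed the limma threshold over all genes, 3 had groups that did not overlap with higher stimulated values and 0 with lower ones, where 3.68% and 3.46% of all genes did. All measured neighbours of Cd274 and Pdcd1lg2 had negative differences, from Jak2 at -0.90 and Insl6 at -0.30 to Mlana at -0.12, and Pdcd1lg2 itself had the lowest of this stretch. All 7 measured neighbours of Cd80 had positive differences, from Timmdc1 at 0.12 to Pla1a, a phospholipase gene, at 1.08, which was more than Cd80 itself. Next to Cd86, Slc15a2, which encodes a peptide transporter, differed by 0.47 without overlap, Casr by 0.01 and Ildr1 by -0.02. These stretches were not tested as groups.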
